A study of Homo sapiens with 2 samples.

Results

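The ARHGEF and ARHGAP genes encode regulators of the small GTPases RHOA, RAC1, CDC42 and their relatives. Members were all genes whose symbol in the array annotation is ARHGEF or ARHGAP followed by a number and an optional last letter, read by probe sets assigned to 1 gene only. The rule found 54 of 19775 genes, namely 23 ARHGEF and 31 ARHGAP genes, with 155 probe sets between them. A further 8 probe sets list such a symbol beside that of another gene and were not used.

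The cells were AsPC-1, an established human pancreatic ductal adenocarcinoma (PDAC) line. By the labels, one sample is the control of the interference experiment and the other had interference with PGR, the progesterone receptor, by siRNA, and nothing else in the labels separates them. There was 1 array per condition, hybridised with biotin-labelled cRNA made from total RNA, and the sources used here do not state which PGR duplex was used or whether cultures were pooled. The study was concerned with PGR, the small GTPase CDC42 and macropinocytosis, the actin-driven uptake of fluid, and the arrays address which transcripts differ after PGR interference.

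RHOA, RAC1, CDC42 and their relatives switch between a GDP-bound resting form and a GTP-bound active form. ARHGEF proteins are guanine nucleotide exchange factors (GEFs), which load GTP and so switch a GTPase on, and ARHGAP proteins are GTPase-activating proteins (GAPs), which speed GTP hydrolysis and so switch it off. In epithelial and pancreatic cancer cells these switches govern actin fibres, membrane ruffles, cell junctions and the last step of cell division.

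Intensities are linear, as deposited, and the brightest probe set of a gene, by its mean log2 signal over both arrays, stood for that gene. A difference is log2(intensity + 1) of the siRNA array minus that of the control array, both named by their labels. A gene was counted if the mean of its log2 values reached the signal floor of 97.9, which is the median of all values of probe sets with 1 gene symbol. A 1.5-fold difference, 0.58 on the log2 scale, served as the rule of size. With 1 array per condition there is no replicate error and no test was possible. A difference between the conditions cannot be told apart from one between any 2 cultures. In RNA from a whole culture, fewer cells with a transcript and less transcript per cell cannot be told apart either.

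PGR itself was below the floor. Its probe sets read 16.1 and 1.53 in the control culture and 73.3 and 4.80 after PGR siRNA, an order opposite to the labels, so the array gives no check of the labels on which each direction below depends. All 7 epithelial markers reached the floor on both arrays, KRT8, KRT18, KRT19, EPCAM and CDH1 among them. Of the fibroblast, leukocyte and endothelial markers measured, only COL1A1 reached it on both, and the endothelial PECAM1, at 163 and 93.2, and the fibroblast DCN, at 115 and 60.3, reached it on the control array alone. Summed intensities of the marker lists, in the same order of arrays, were 116549 and 121823 for the epithelial and 470 and 501 for the fibroblast list. They were 214 and 117 for the leukocyte and 277 and 152 for the endothelial list. All 3 leukocyte, 4 of 5 endothelial and 3 of 5 fibroblast markers were below the floor on both arrays, where differences have no usable size. The part of these markers in the results was not tested.

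Of the 54 members, 37 were counted, 17 of them ARHGEF and 20 ARHGAP genes. ARHGAP members mostly read lower on the siRNA array, whereas ARHGEF members lay on both sides of 0. The median difference was -0.21 over the 20 ARHGAP members, with a range from -1.03 to 0.20, and 16 of them were below 0. Over the 17 ARHGEF members the median was -0.016, with a range from -0.47 to 0.43, and 9 were below 0. Among all 11124 counted genes the median was 0.023 and 46.2% were below 0. Those values describe 2 arrays and were not tested, and the ARHGEF median is above 0 when every probe set of a gene is averaged, with no filter, with a filter at the 75th percentile and with probe sets free of a mark for shared sequence.

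**Figure D1:**
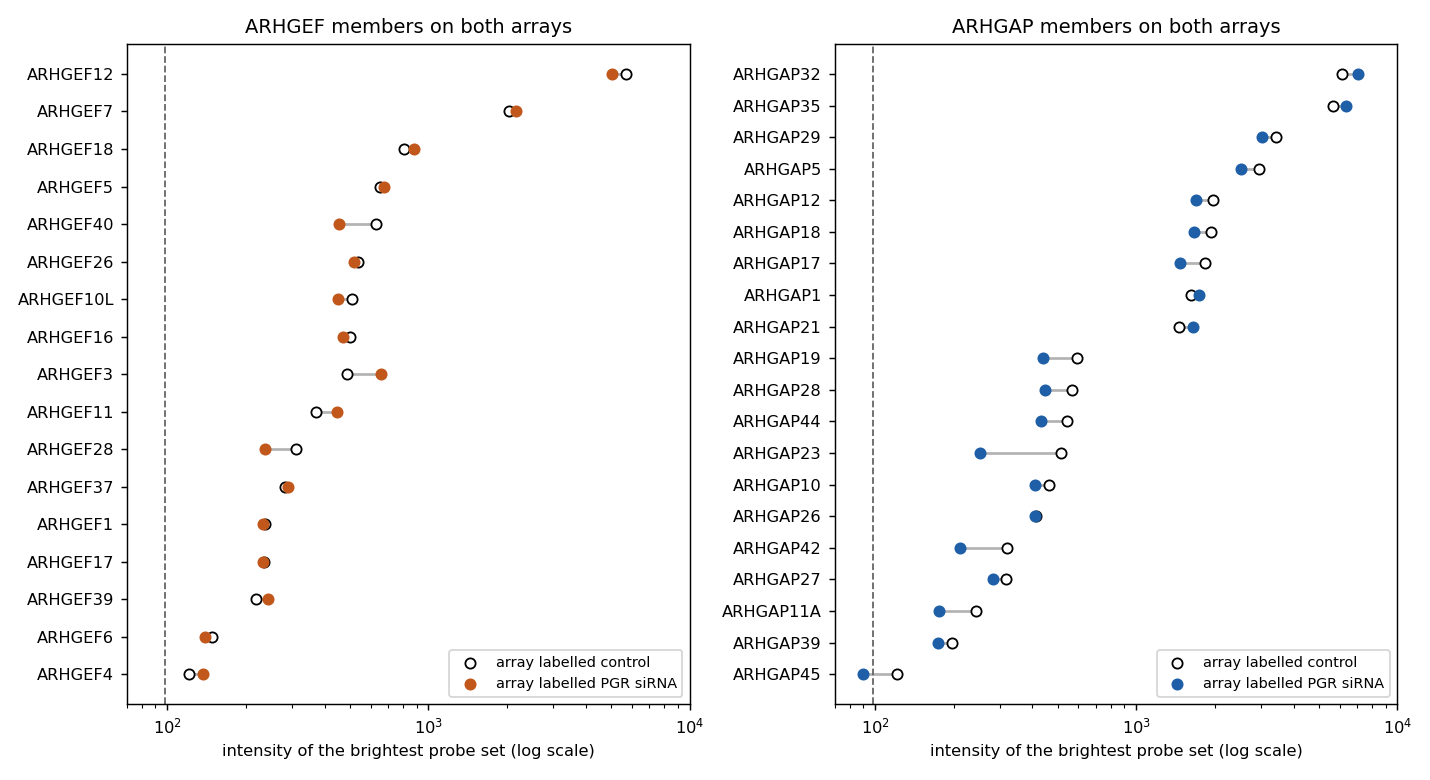
Intensity of the brightest probe set of each counted member (log axis) on the control array (open points) and the PGR siRNA array (filled points), with the signal floor of 97.9 as a dashed line and members ordered by their control reading, which does not rank transcripts of different genes. In the ARHGAP panel the filled point lies to the left of the open one for 16 of 20 members, and in the ARHGEF panel for 9 of 17.

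No member was at least 1.5-fold higher, against 2.45% of all counted genes, and 2 were at least 1.5-fold lower, against 3.03%. Both of these are ARHGAP genes. One of them, ARHGAP23, was also past 2-fold, which 0.423% of counted genes were in the lower direction and 0.351% in the higher direction. The other, ARHGAP42, lay just inside the rule of size, and the nearest member outside it was ARHGEF40. With the counted genes split by mean signal into 3 tiers of equal number, both called members belong to the dimmest, up to an intensity of 515, in which 7.74% of all genes were at least 1.5-fold lower and 2 of 21 members were. The number of members past the rule of size is therefore near the background.

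ARHGAP23, a little-studied GAP with a PDZ domain, read 515 on the control array and 252 on the siRNA array, a difference of -1.03. Only 1 ARHGAP23 probe set was past the floor, and it alone carries that size. The other 3 ARHGAP23 probe sets had mean signals below the floor, where differences have no usable size. All 3, each with a mark for shared sequence, were lower on the siRNA array as well. The brightest of those read 117 and 8.35. ARHGAP42, also known as GRAF3, is a GAP for RHOA with a BAR domain. It read 320 and 212, a difference of -0.59. Its remaining probe sets were below the floor and ran in opposite directions, at 1.13 and -1.50, so 1 probe set carries the reading of ARHGAP42.

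The 100 bases before the annotated start of ARHGAP23 (GRCh38.p14, chr17:38428364-38428463, plus strand) and of ARHGAP42 (chr11:100687188-100687287, plus strand) are shown from RefSeq because these are the members past the rule of size. All letters are printed in lower case, and neither stretch holds the progesterone response core described further on.
ARHGAP23: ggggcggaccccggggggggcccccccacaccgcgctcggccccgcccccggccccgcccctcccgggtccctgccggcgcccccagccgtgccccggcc
ARHGAP42: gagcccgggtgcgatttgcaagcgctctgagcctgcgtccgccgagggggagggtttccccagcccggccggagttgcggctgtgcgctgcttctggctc

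**Figure D2:**
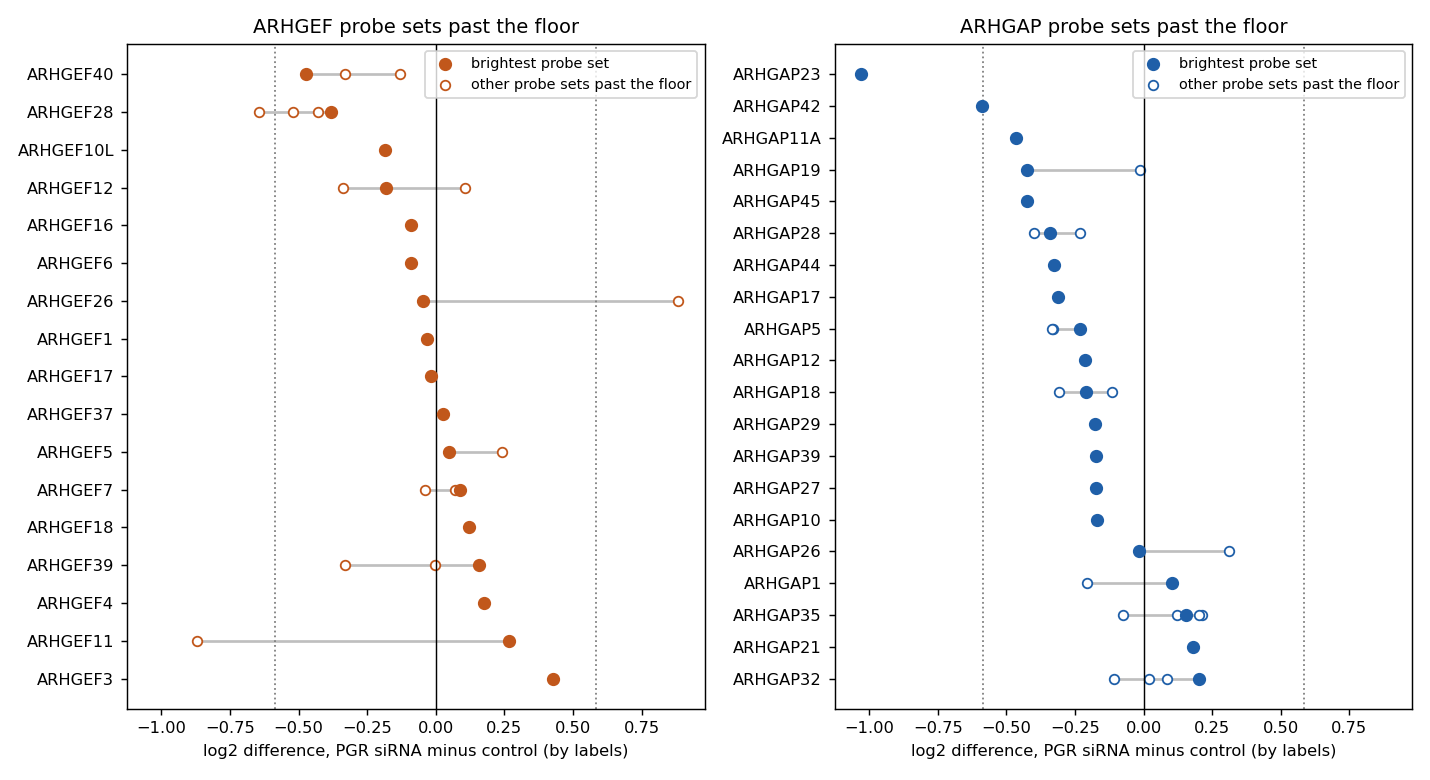
Log2 difference (PGR siRNA minus control, by labels) of every probe set past the floor of each counted member, with the brightest probe set filled, the others open, and 1.5-fold marked by dotted lines. ARHGAP5, ARHGAP18, ARHGAP28, ARHGEF28 and ARHGEF40 have 3 or more probe sets past the floor, all below 0, while ARHGEF11 and ARHGEF26 have probe sets far apart.

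Probe sets of 1 gene give separate readings of the same culture, so their accord measures the array and not the spread between cultures. Of the 155 member probe sets, 67 were past the floor, and 45 of these (67.2%) were below 0, against 48.8% of the 20300 probe sets past the floor over all genes. Of the 37 counted members, 16 had more than 1 such probe set. In 6 of these (37.5%) all were lower, against 21.4% of genes with more than 1 probe set past the floor. In 1 (6.25%), ARHGEF5, all were higher, against 23.2%. The remaining 9 were mixed. The 6 are ARHGAP5, ARHGAP18, ARHGAP19, ARHGAP28, ARHGEF28 and ARHGEF40. Within genes, probe sets past the floor scattered with an SD of 0.29 on the log2 scale over all genes, which is larger than most of the member differences.

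The p190 proteins ARHGAP5 and ARHGAP35 are GAPs for RHOA that act in cell adhesion and migration, and they read in opposite directions. ARHGAP5, or p190B, read 2949 on the control array and 2509 on the siRNA array, a difference of -0.23. Its other 2 probe sets past the floor gave -0.33 each. ARHGAP35, or p190A, read 5687 and 6335, a difference of 0.16, with its 4 other probe sets between -0.074 and 0.21.

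A further group of GAPs that act mainly on RHOA had 3 counted members. All 3 were below 0 by the brightest probe set, as were 46.2% of all counted genes. ARHGAP28 read 568 and 448, a difference of -0.34, and its other probe sets gave -0.40 and -0.23. ARHGAP18, which limits stress fibres, read 1930 and 1668, a difference of -0.21, with its other probe sets at -0.31 and -0.11. These 2 genes are the ones in which all of 3 probe sets had 1 sign in this group. ARHGAP29, a GAP for RHOA downstream of RAP1, read 3427 and 3033, a difference of -0.18, from 1 probe set past the floor. ARHGAP6 and ARHGAP20 of the same group were below the floor on both arrays.

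The GRAF proteins join a GAP domain to a BAR domain that senses curved membrane, and GRAF1 takes part in clathrin-independent endocytosis. Besides ARHGAP42, ARHGAP10 (GRAF2) read 462 and 410, a difference of -0.17. ARHGAP26 (GRAF1) read 413 and 408, a difference of -0.018, and its other probe set past the floor gave 0.31. All 3 GRAF genes were below 0 by the brightest probe set, but ARHGAP26 has no settled sign.

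The RICH proteins, GAPs for CDC42 and RAC1 that also carry a BAR domain, read lower by like amounts. ARHGAP17 (RICH1), which maintains epithelial junctions through CDC42, read 1834 on the control array and 1475 on the siRNA array, a difference of -0.31. ARHGAP44 (RICH2) read 540 and 430, a difference of -0.33. Each rests on 1 probe set past the floor. Of all counted genes 10.9% lay at or below ARHGAP17 and 10.2% at or below ARHGAP44, so neither stands at the edge of the distribution by itself.

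ARHGAP11A and ARHGAP19 are GAPs for RHOA with roles in mitosis and cytokinesis, and both read lower. ARHGAP11A read 243 and 176, a difference of -0.46 from its only probe set, and its near-identical copy ARHGAP11B was not analysed here. ARHGAP19 read 592 and 440, a difference of -0.43, while its other probe set past the floor gave -0.011. Of the genes with other names, RACGAP1, the GAP of the centralspindlin complex, and ECT2, the GEF that it recruits, were picked after their values were seen and add nothing to that count. RACGAP1 read 2005 and 1387, a difference of -0.53, and ECT2 read 3598 and 2804, a difference of -0.36, with its other probe set at -0.32. ARHGEF39, a GEF linked to proliferation, stood at 0.16, -0.0012 and -0.33 in its 3 probe sets.

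GAPs directed at CDC42 and RAC1 were split. ARHGAP12, a GAP for RAC1, read 1963 and 1691, a difference of -0.22. Its relative ARHGAP27, which is linked to clathrin endocytosis, read 318 and 282, a difference of -0.17. ARHGAP39, also called Vilse, read 197 and 175, a difference of -0.17. On the other side, ARHGAP32, a GAP for CDC42, read 6138 and 7053, a difference of 0.20, with its other probe sets at 0.020, -0.11 and 0.084. ARHGAP21, a GAP for CDC42 at the Golgi and a relative of ARHGAP23, read 1457 and 1650, a difference of 0.18. ARHGAP1, the classical CDC42 GAP with a Sec14-like domain, read 1613 and 1733, a difference of 0.10, and a dimmer probe set, marked for shared sequence, gave -0.21. Together with ARHGAP35 these 3 are the only counted ARHGAP members above 0, and all 4 lay within 1.15-fold.

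ARHGAP45, which yields a minor histocompatibility antigen in blood cells, read 121 on the control array and 90.2, below the floor, on the siRNA array. It is the only counted member with a value below the floor, and its difference of -0.43 has no exact size.

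Exchange factors for RHOA held both ends of the ARHGEF range. ARHGEF40, also called Solo, which binds keratin 8 and keratin 18 filaments, read 628 and 453, a difference of -0.47, with its other probe sets at -0.13 and -0.33. ARHGEF28, or RGNEF, which binds focal adhesion kinase, read 310 and 238, a difference of -0.38. Its 3 other probe sets past the floor gave -0.43, -0.64 and -0.52, so ARHGEF28 had 4 readings of 1 sign. ARHGEF3, or XPLN, a GEF for RHOA and RHOB, read 489 and 658, a difference of 0.43 from its only probe set. It is the highest of the counted members, and 94.1% of counted genes lay at or below it. ARHGEF18, which activates RHOA at tight junctions, read 808 and 879, a difference of 0.12, ARHGEF10L 511 and 449, a difference of -0.19, and ARHGEF17 235 and 232, a difference of -0.016.

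The RGS-domain GEFs ARHGEF1, ARHGEF11 and ARHGEF12 carry signals from G alpha 12 and 13 to RHOA. ARHGEF12, or LARG, read 5720 and 5041, a difference of -0.18, but its other probe sets past the floor gave 0.11 and -0.34. ARHGEF11, which also has a PDZ domain, read 370 and 445, a difference of 0.27, while a second probe set read 156 and 84.8, a difference of -0.87 with the siRNA value below the floor. The probe sets of ARHGEF11 thus lie 1.14 apart and give no direction for the gene. ARHGEF1 read 236 and 231, a difference of -0.031.

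The counted members among the PIX proteins, ASEF, the ephexin relatives and ARHGEF37 lay between -0.090 and 0.18 by their brightest probe sets. The PIX proteins ARHGEF6 and ARHGEF7 bind PAK kinases. ARHGEF7 read 2036 and 2166, a difference of 0.089, with other probe sets at -0.039 and 0.070, and ARHGEF6 read 148 and 140, a difference of -0.089. ARHGEF4, or ASEF, a CDC42 exchange factor that binds APC, read 121 and 137, a difference of 0.18. ARHGEF26, or SGEF, a GEF for RHOG known for promoting macropinocytosis, read 537 and 521, a difference of -0.045. A second ARHGEF26 probe set read 77.4 and 144, a difference of 0.88 with the control value below the floor. Of the other ephexin relatives, ARHGEF16 read 503 and 472, a difference of -0.090, and ARHGEF5 read 654 and 678, a difference of 0.050, with its other probe set at 0.24, and its close copy ARHGEF35 was not analysed here. ARHGEF37, a little-studied GEF with a BAR domain, stood at 0.028.

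**Figure D3:**
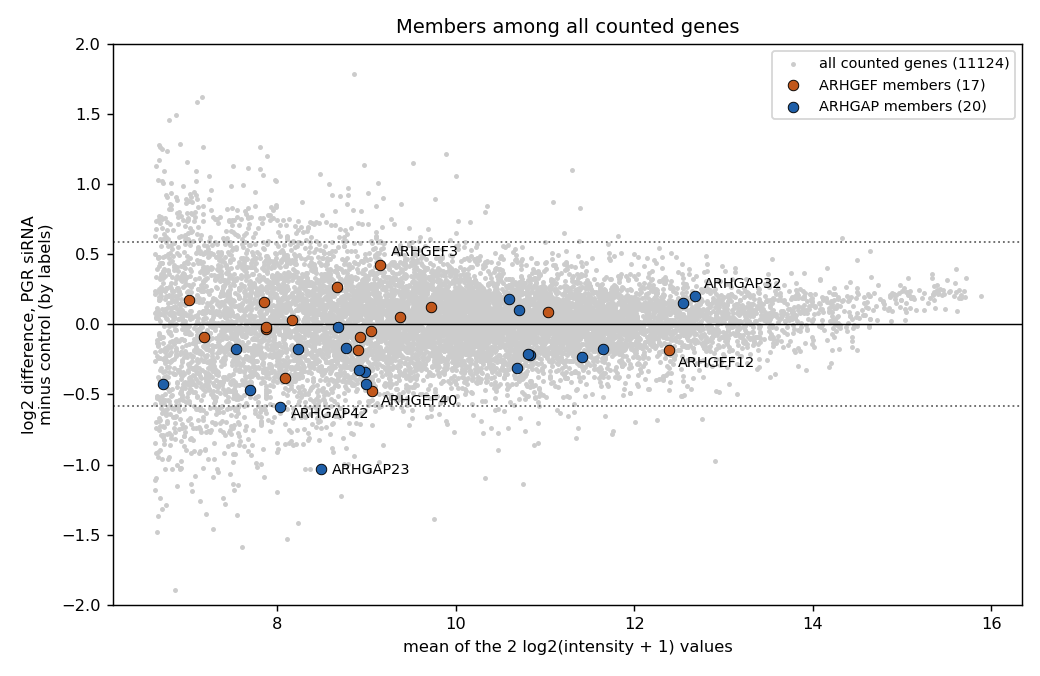
Log2 difference (PGR siRNA minus control, by labels) against the mean log2 signal, for all 11124 counted genes (grey), 17 ARHGEF members (orange) and 20 ARHGAP members (blue), with 1.5-fold as dotted lines. ARHGAP23 at -1.03 and ARHGAP42 at -0.59 are the members beyond a dotted line, the scatter of all genes narrows toward high signal, and 1 gene, at 3.07, lies beyond the vertical axis.

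The scatter of all genes depends on signal, with an SD of 0.40 in the dimmest tier, 0.24 in the middle tier and 0.18 in the brightest tier. In the dimmest tier all 11 ARHGAP members and 6 of 10 ARHGEF members were below 0, against 50.4% of all genes there. In the middle tier it was 1 of 3 ARHGAP and 2 of 5 ARHGEF members, against 45.6%. In the brightest tier it was 4 of 6 ARHGAP members and 1 of 2 ARHGEF members, against 42.7%. The median difference of the ARHGAP members was -0.34 in the dimmest tier and -0.19 in the brightest, against -0.0037 and 0.031 for all genes, and 0.10 over the 3 in the middle.

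**Figure D4:**
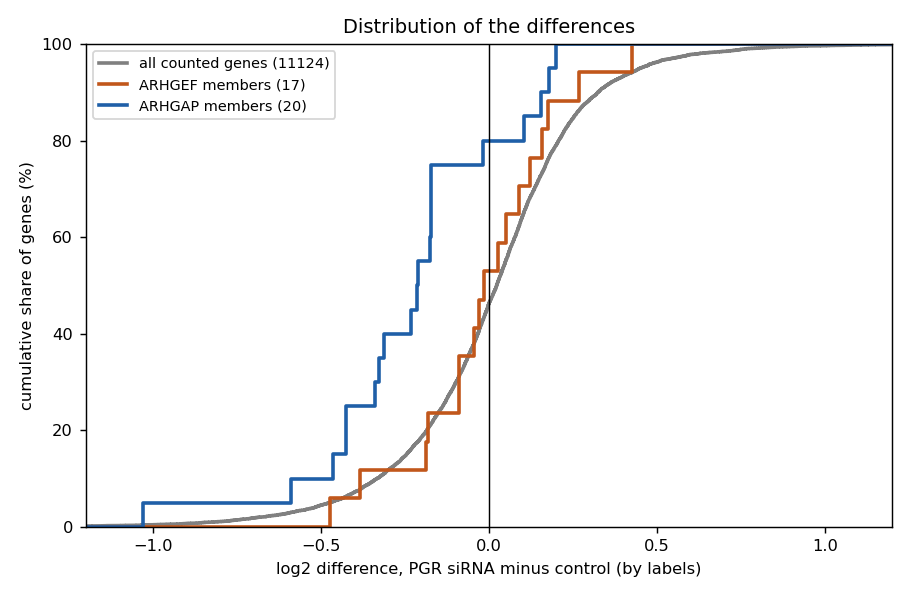
Cumulative share of genes (%) by log2 difference (PGR siRNA minus control, by labels) for all counted genes (grey), ARHGEF members (orange) and ARHGAP members (blue). At a difference of 0 the curves stand at 46.2% for all genes, 52.9% for ARHGEF and 80% for ARHGAP members.

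The remaining 17 members, 6 ARHGEF and 11 ARHGAP genes, were below the floor on both arrays by their brightest probe set, the highest reading being 96.2 for ARHGEF38 on the control array. They include ARHGAP4, ARHGAP9, ARHGAP25 and ARHGAP30, which are known mainly from blood cells, ARHGAP22 and ARHGAP24, GAPs for RAC1, and ARHGAP31 and ARHGAP33 of the CdGAP group, so that ARHGAP32 is the sole counted member of that group. The others are ARHGAP6, ARHGAP20, ARHGAP36, ARHGEF10, ARHGEF15, ARHGEF19, ARHGEF25 and ARHGEF33. Differences at such readings are wide, from -1.86 for ARHGAP20 to 3.19 for ARHGAP6, and have no usable size.

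Genes that share the cycle with the members were read from lists of other names. The small GTPases of this family themselves had a median of 0.011 over 13 counted genes. In each direction 1 was past the rule of size, against 2.45% of all counted genes higher and 3.03% lower. RAC3 was highest, at 159 and 251, a difference of 0.65, and RHOV lowest, at 256 and 143, a difference of -0.83. CDC42 read 2376 and 2394, a difference of 0.011, RHOA 22559 and 22473, a difference of -0.0055, and RAC1 11763 and 13244, a difference of 0.17. The other probe sets of RAC1 past the floor reached from -0.0076 to 0.44. ARHGDIA, an inhibitor that holds these GTPases in the cytosol, stood at 0.092, with its lowest probe set past the floor at -0.35, and the other 2 inhibitors were below the floor.

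Dbl-type exchange factors with other names had a median of -0.13 over 26 counted genes, 20 of them below 0 and none past 1.5-fold. KALRN, a GEF for RAC1 and RHOG, was lowest at -0.51, and FGD2, a GEF for CDC42, highest at 0.53. NET1, a GEF for RHOA, read 4441 and 3589, a difference of -0.31, with its other probe set at -0.45. The 7 counted DOCK exchange factors, which act on RAC1 and CDC42, had a median of -0.13, with DOCK8 lowest at -0.38 and DOCK1 highest at 0.20. GAPs with other names had a median of -0.13 over 11 counted genes, 6 of them below 0. Of those 11, 2 were at least 1.5-fold lower, against 3.03% of all counted genes. Both belong to the dimmest tier of signal, in which 7.74% of all genes were at least 1.5-fold lower. DLC1, a tumour suppressor and GAP for RHOA, read 388 and 213, a difference of -0.86 with another probe set at -0.25. SRGAP1 stood at -0.74 with its siRNA value below the floor. CHN1, a GAP for RAC1, was highest at 0.17. The lists of GEFs and GAPs under other names thus also had medians below 0, closer to 0 than that of the ARHGAP members. Of the other Dbl genes 76.9% were below 0, of the DOCK genes 57.1% and of the other GAPs 54.5%. Among the members it was 80% of ARHGAP and 52.9% of ARHGEF genes. The contrast of lower GAPs with GEFs on both sides of 0 therefore did not recur under other names. These lists were not tested against each other.

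**Figure D5:**
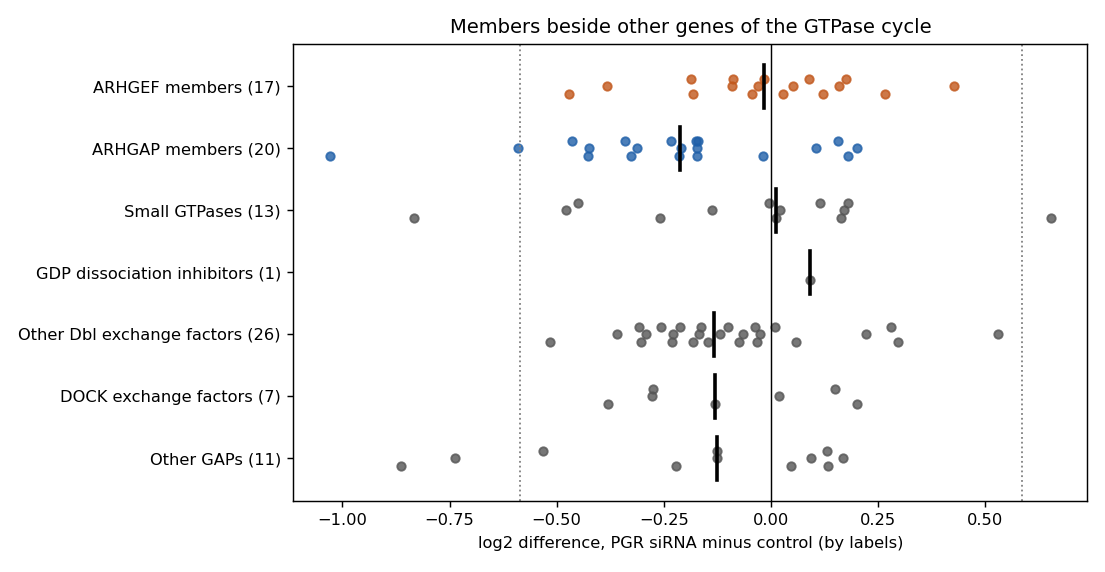
Log2 difference (PGR siRNA minus control, by labels) of the counted members and of other genes of the GTPase cycle, with 1 point per gene, the number of genes in parentheses, medians as black bars and 1.5-fold as dotted lines. The ARHGAP median lies at -0.21, the medians of other Dbl, DOCK and other GAP genes at -0.13 each, and those of ARHGEF members and the small GTPases near 0.

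PGR binds DNA at response elements whose repeated core has the letters AGAACA, or TGTTCT on the other strand. RefSeq windows of the 250 bases before a start (GRCh38.p14) were found for 42 of the 54 members, and a gene can have several. Of the 68 windows of 31 counted members, 6 (8.82%) held this core on either strand, against 8.12% of the windows of all counted genes and 12.4% of all 35116 windows. By gene, 6 of the 31 counted members (19.4%) had such a window, against 10.8% of counted genes with a window. The latter were 9179 genes with 13421 windows, fewer per gene than the members had. A gene with more windows has more places for a match, so the shares by gene are not on equal terms. Such a match is only a run of letters, and neither share was tested. The matches are printed with up to 20 bases on each side and the core in capitals, to show which members hold one and that their differences run both ways. They lie at chr1:17539147-17539192 (plus strand, ARHGEF10L), chr10:31909004-31909049 (minus, ARHGAP12), chr11:120385096-120385141 and chr11:120385188-120385233 (plus, ARHGEF12), chr11:129024214-129024259 (minus, ARHGAP32), chr13:111186599-111186644 (plus, ARHGEF7) and chr19:1067387-1067432 (plus, ARHGAP45).
ARHGEF10L, difference -0.19: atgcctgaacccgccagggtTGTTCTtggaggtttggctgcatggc
ARHGAP12, difference -0.22: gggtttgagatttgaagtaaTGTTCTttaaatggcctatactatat
ARHGEF12 first match, difference -0.18: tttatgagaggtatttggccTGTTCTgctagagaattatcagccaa
ARHGEF12 second match, difference -0.18: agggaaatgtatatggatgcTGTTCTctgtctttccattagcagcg
ARHGAP32, difference 0.20: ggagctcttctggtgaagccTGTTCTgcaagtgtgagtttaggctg
ARHGEF7, difference 0.089: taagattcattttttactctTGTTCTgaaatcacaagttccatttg
ARHGAP45, difference -0.43: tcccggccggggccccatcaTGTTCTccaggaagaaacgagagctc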

How the data were processed

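The authors deposited linear intensity values, 1 per probe set and array, for 54675 probe sets. The means after trimming 2% of values at each end were equal, so the arrays had been scaled to a common level, which hides any difference in total brightness. The summary algorithm, background correction and scaling are not given in the sources used here, and detection calls were not analysed.

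Probe sets were named from the platform annotation (41097 with 1 symbol, the rest left out). For 41043 the RefSeq symbol of the gene identifier was used, whether or not it differed. Genes were read, counted and compared on log2(intensity + 1) as described with the results. Counting by the mean of both arrays favours neither array. With 1 array per condition no p-value was computed. Medians and counts are descriptions beside the same values over all counted genes. The number of arrays limits the precision.

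The members and gene lists were chosen with earlier results of these data known. Named genes were the members past 1.5-fold, those at either end or brightest in each family, those with probe sets of opposite sign and at least 1 apart, at least 1 of each subfamily, PGR, CDC42 and the ends of each list. Other members complete a subfamily. RHOA, RAC1, ECT2, NET1, RACGAP1 and SRGAP1 were named after their values were seen.

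The calculation was tested on simulated data with known differences of at least 2-fold and less scatter than these arrays show. That test does not cover differences near the 1.5-fold rule. The alternatives tried were a 2-fold rule, other signal filters, an offset of 16, loess (span 0.7), quantile normalization, median centring and the average over every probe set of a gene, and 2 further readings of the probe sets were added after the data were seen. A planned protein comparison was not run, since no protein table was used here. Python 3.11.15, numpy 2.4.6, pandas 2.3.3, statsmodels 0.14.6 and matplotlib 3.10.9 were used.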

Additional observations from a re-analysis of the deposited data

How the results depend on the processing

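The median of the ARHGAP members stayed below 0 and below the ARHGEF median in all 12 settings, ranging from -0.17 to -0.24, and the medians were 0.18 to 0.25 apart in size. All 12 settings read the same 2 arrays. With a filter at the 75th percentile, 5 of 9 ARHGAP members (55.6%) and 1 of 4 ARHGEF members were below 0, against 44.0% of all genes. The cause of the shifts that follow was not tested. Averaging all probe sets of a gene, which takes in those below the floor and leaves 25 members, gave a member median of -0.089, an ARHGEF median of 0.0064, 2 members higher (ARHGAP1 and ARHGAP21) and 4 lower (ARHGAP5, ARHGAP19, ARHGAP44 and ARHGEF28), against 4.11% of all genes higher and 4.71% lower. Without a signal filter these values were -0.067, 0.028, 4 and 7 of 54 members, against 14.0% and 16.6% of all genes, and with a stricter filter, the 75th percentile, which leaves 13 members, they were 0.050, 0.070, 0 and 0, against 0.378% and 0.640%. The ARHGEF median was -0.038 with median centring and -0.0029 with quantile normalization, -0.031 with the mean of probe sets past the floor and 0.050 with probe sets free of a mark for shared sequence, for which the member median was -0.067. With quantile normalization or an offset of 16, 1 member was at least 1.5-fold lower, ARHGAP23, and ARHGAP42 was not. At 2-fold 1 member was lower, again ARHGAP23. Of the 37 counted members, 1 took the other sign with quantile normalization, 5 with the mean of probe sets past the floor and none with loess, median centring or the offset. No paired analysis was possible because there was 1 array per condition.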

Other observations

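Transcripts that carry a member's symbol with a suffix fell outside the rule. ARHGAP5-AS1, an RNA from the region of ARHGAP5, read 225 on the control array and 196 on the siRNA array, a difference of -0.20 beside -0.23 for ARHGAP5. The pseudogene ARHGAP27P1 read 124 and 92.3, a difference of -0.43 with the siRNA value below the floor, beside -0.17 for ARHGAP27. Sequence shared between this pseudogene and ARHGAP27 was not examined. ARHGAP22-IT1, ARHGAP26-AS1, ARHGEF7-AS2 and ARHGEF26-AS1 were below the floor on both arrays.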
